A study of Mus musculus with 18 samples.

Results

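Neurospheres mixed from Pcdh19 knockout and wild type cells were compared with neurospheres of wild type cells alone, before differentiation began (day 0). The comparison rests on 6 of the 18 arrays of the series, 3 mosaic and 3 wild type, taken by genotype and day from the sample titles. It covers 22180 genes named by a probe set with exactly 1 gene symbol, each read from the probe set with the highest mean over all 18 arrays. Neurospheres are free-floating balls of neural stem and progenitor cells grown from mouse brain. Total RNA was labelled and hybridised to 1 array per sample. The study measured mosaic, Pcdh19 knockout and wild type cultures at day 0 and at day 4 of differentiation, with 3 arrays in each of the 6 groups. The labels call every sample female. The share of each genotype in the mosaic cultures, the part of Pcdh19 that was deleted, and the age of the donor animals are stated nowhere in the labels. The design text calls the 3 arrays of a group technical replicates, so every p-value below measures the spread between these samples and not between animals.

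Pcdh19 encodes protocadherin 19, an adhesion molecule of the delta group of non-clustered protocadherins that is expressed in the developing brain and works together with N-cadherin. The gene is X-linked. In people, loss-of-function variants cause an epilepsy that mainly affects heterozygous females, in whom X inactivation leaves expressing and non-expressing cells side by side, while males with no functional copy are usually spared seizures. A culture mixed from both kinds of cell is a laboratory model of that state, and its day 0 profile asks how it differs from wild type cells before any differentiation.

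The 6 arrays had signal for markers of neural stem and progenitor cells, and also for markers of other neural cells. Each of 11 markers of these cells lay above the array's median signal on all 6 arrays. Among them, Sox2, a stem cell transcription factor, lay between 10.84 and 10.97 on the log2 scale, and Fabp7, a fatty acid-binding protein of radial glia, lay between 13.11 and 13.28. Markers of oligodendrocyte progenitors (6 of 6) and astrocytes (5 of 5) were also above the median on all 6 arrays. So were 6 of 7 neuronal markers, and 3 of 4 neuroblast and 3 of 5 oligodendrocyte markers that had a probe set. Lying above the median therefore does not separate these cell types here. Of 8 microglial markers, Cx3cr1 alone was above the median on all 6 arrays, and Ptprc, the pan-leukocyte antigen, was below the 25th percentile on all 6. The summed log2 signal of the microglial markers was 35.83 to 37.32 on mosaic arrays and 34.9 to 36.38 on wild type arrays.

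Several sex-linked genes went against the label, and other Y-linked genes were dim. Xist, the RNA that coats the inactive X chromosome in female cells, had log2 signals of 3.50, 3.50 and 3.55 on the mosaic arrays and 3.27, 3.41 and 3.45 on the wild type arrays, below the 25th percentile of the array in each case. The Y-linked demethylase gene Kdm5d had 7.87, 8.07 and 8.01 on mosaic arrays and 7.91, 8.02 and 8.02 on wild type arrays. Eif2s3y, a Y-linked translation factor gene, had 8.91, 8.70 and 8.59 on mosaic arrays and 8.93, 8.77 and 8.83 on wild type arrays. Usp9y lay between 2.72 and 3.17 and Zfy2 between 2.83 and 3.30, both below the 25th percentile on all 6 arrays, and Sry was above the median on 0 arrays. The Kdm5d and Eif2s3y levels overlapped between mosaic and wild type. Whether other sequences contribute to the Y-linked signals was not tested.

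Pcdh19 was measured by 1 probe set (17544373). Its log2 signal was 6.03, 6.32 and 5.65 on the mosaic arrays, 5.39, 5.46 and 5.68 on the knockout arrays, and 6.85, 6.83 and 6.66 on the wild type arrays. All 3 mosaic arrays lay below all 3 wild type arrays, whereas mosaic replicate 3 lay inside the knockout range. The means were 5.999 ± 0.33 in mosaic, 5.51 ± 0.15 in knockout and 6.78 ± 0.11 in wild type neurospheres (SD, n = 3 each). In limma, the mosaic minus wild type difference was -0.78 ± 0.26 (SE; 95% interval -1.34 to -0.22), a 1.72-fold lower signal. Its p was 0.00918 before adjustment and its Benjamini-Hochberg adjusted p was 0.999, so Pcdh19 did not pass. The exact two-sided permutation p over the 6 arrays was 0.1, the smallest that 3 arrays against 3 can give. In bulk RNA, fewer Pcdh19-expressing cells and less Pcdh19 RNA per cell cannot be told apart.

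The mosaic arrays differed more among themselves in Pcdh19 than the wild type arrays did. On a linear scale with the knockout mean at 0 and the wild type mean at 1, the mosaic arrays stood at 0.307, 0.528 and 0.0704 in the order of their replicate numbers. These positions compare array signals and are not shares of cells, since the response of the probe set at low signal is not known. At day 4 the mosaic positions were 0.611, 1.25 and -0.0899, with replicate 2 highest and replicate 3 lowest. The mosaic minus knockout difference at day 0 was 0.49, with a 95% interval of -0.07 to 1.05 (limma adjusted p = 1.0).

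**Figure D1:**
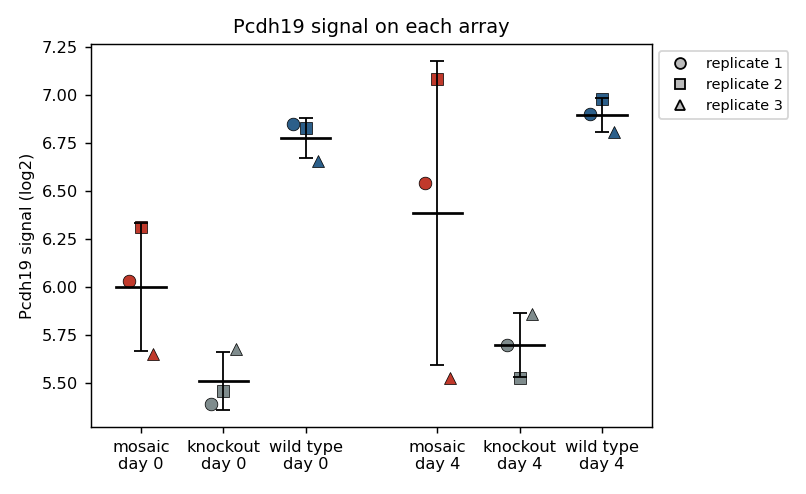
Pcdh19 log2 signal (vertical axis) on each of the 18 arrays, by genotype and day; bars are means and whiskers are SDs over 3 arrays. At day 0 the mosaic arrays sit between 5.65 and 6.32, below the 3 wild type arrays, and the mosaic arrays at day 4 spread more widely than any other group.

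Across the genome, mosaic and wild type neurospheres had closely similar array signals at day 0. Of 19016 genes tested with limma, 0 were called at an adjusted p under 0.05 (0%), with a smallest adjusted p of 0.772. An unadjusted p under 0.01 was found for 158 genes (0.831%). At an unadjusted p under 0.05 there were 817 genes (4.3%), 493 higher (2.59%) and 324 lower (1.7%) in mosaic. The 3 mosaic arrays lay entirely above the 3 wild type arrays for 1077 genes (5.66%) and entirely below them for 1071 (5.63%). The intervals bound the size of the differences: the 95% interval stayed within 1.5-fold in either direction for 16805 genes (88.4%) and within 2-fold for 18877 (99.3%). The median difference was 0.00, and 1 gene in 20 lay below -0.21 and another 1 in 20 above 0.26 on the log2 scale.

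Few genes differed by much. Mosaic exceeded wild type by at least 1.5-fold for 30 genes (0.158%), and lay that far below it for 17 (0.0894%). A 2-fold difference was reached by 1 gene in each direction (0.00526% each). These were Rps13, a ribosomal protein gene, and Snord91a, a small nucleolar RNA, named because they were the only ones. Rps13 had 8.11, 7.19 and 7.97 on mosaic arrays and 8.35, 7.72 and 4.02 on wild type arrays, a difference of 1.06, with wild type replicate 3 far below the other 5 arrays. Snord91a had 3.87, 3.92 and 2.94 on mosaic arrays and 5.02, 5.27 and 4.43 on wild type arrays. The groups did not overlap for Snord91a (difference -1.33, limma adjusted p = 0.772).

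**Figure D2:**
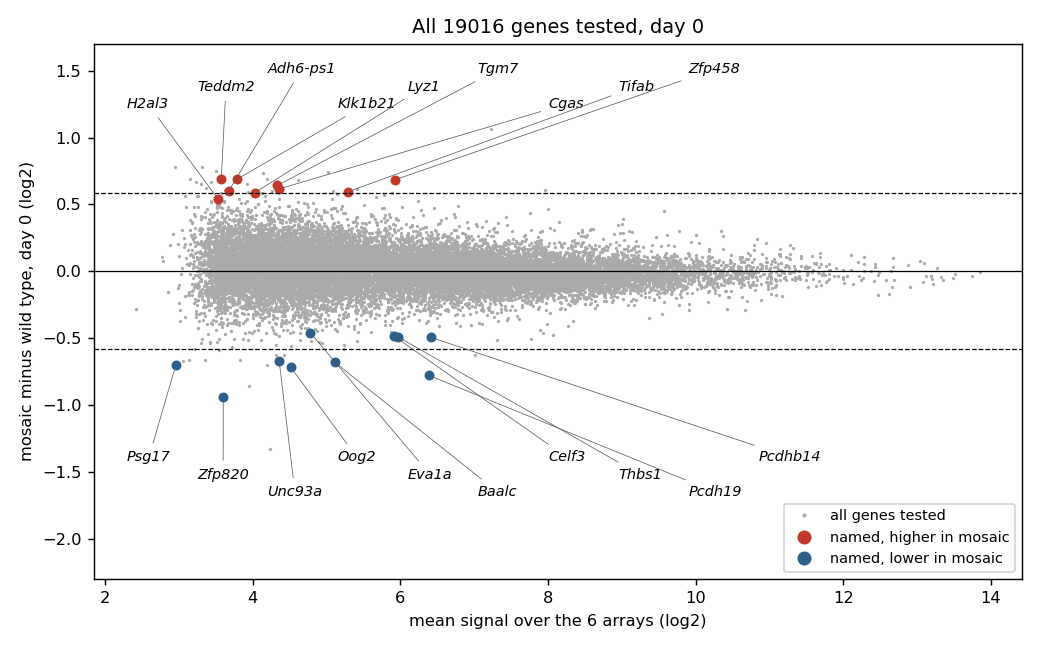
Log2 difference of mosaic minus wild type at day 0 (vertical axis) against mean log2 signal over the 6 arrays (horizontal axis), 1 point per gene tested; dashed lines mark 1.5-fold. The named genes with the highest differences are red and those with the lowest are blue. The cloud narrows from dim to bright genes, and Pcdh19 stands below the other genes of similar signal.

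The direction of the small differences depended on signal level. The 19016 genes were divided by mean level into 4 bins of 4754. In the dimmest bin 224 genes were higher and 80 lower at an unadjusted p under 0.05, and in the next bin 179 were higher and 98 lower. In the third the counts were 67 higher and 86 lower, and in the brightest 23 higher and 60 lower. After quantile normalization the brightest bin held 42 higher and 34 lower and the third held 86 and 65, so these bins no longer held more lower than higher genes. The dimmest bin still had 233 higher and 89 lower. The median level of genes with an unadjusted p under 0.05 was 5.11, against 6.05 for the other genes, and the deposited values used here carry no detection call for dim probe sets.

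By correlation, no single array stood far apart from the others. Pearson correlations across genes, which are not independent of one another, were 0.983 to 0.984 among mosaic arrays, 0.986 for each pair of wild type arrays, and 0.983 to 0.985 between mosaic and wild type arrays. A mosaic array was thus about as similar to a wild type array as to another mosaic array. The median SD of a gene within a group was 0.122 in mosaic, 0.126 in knockout and 0.113 in wild type neurospheres. An SD above 0.5 was found for 200 genes in mosaic, 209 in knockout and 126 in wild type neurospheres.

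The genes with the widest gaps were taken from those with an unadjusted p under 0.01 and no overlap between the groups, as the 10 highest and 10 lowest differences among 107 such genes with an established symbol (62 higher, 45 lower). The overlap of groups was part of that choice, so it carries no further weight for these genes, and all of them missed the adjusted threshold. Tifab, which encodes an inhibitor of the signalling adaptor TIFA, had 5.56, 5.58 and 5.62 on mosaic arrays and 5.07, 4.73 and 5.18 on wild type arrays. Its difference of 0.59 ± 0.11 (SE) had, with Snord91a, the smallest adjusted p of the comparison, 0.772. The other named genes had adjusted p of 0.999.

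The named genes with positive differences included a sensor of innate immunity. Cgas, the cytosolic DNA sensor, had 4.94, 4.65 and 4.41 on mosaic arrays and 3.96, 4.34 and 3.85 on wild type arrays, a difference of 0.62. For Cgas mosaic replicate 3 lay just above wild type replicate 2. The zinc finger gene Zfp458 differed by 0.68 and the lysozyme gene Lyz1, which has a close paralogue, by 0.59. Teddm2 differed by 0.69, the kallikrein gene Klk1b21 by 0.69, the transglutaminase gene Tgm7 by 0.64, the alcohol dehydrogenase pseudogene Adh6-ps1 by 0.60 and the H2A-like histone gene H2al3 by 0.54. Of these 7 genes all but Zfp458 averaged under 4.85, the lowest array median, over the 6 arrays. For Teddm2, Klk1b21 and H2al3 all 3 wild type arrays lay under 3.57, the lowest 25th percentile of an array. Cgas was also dim, with means of 4.67 in mosaic and 4.05 in wild type, both under 4.85.

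The named genes with negative differences included several expressed in neural cells. Thbs1, which encodes the secreted matrix protein thrombospondin 1, had 5.72, 5.73 and 5.72 on mosaic arrays and 6.23, 6.23 and 6.17 on wild type arrays. The arrays within each group were nearly identical for Thbs1, and its difference was -0.49 ± 0.17 (SE). Celf3, an RNA-binding splicing regulator of neurons, had 5.90, 5.73 and 5.39 on mosaic arrays and 6.03, 6.31 and 6.14 on wild type arrays, a difference of -0.48. Baalc, a gene of neuroectoderm and early blood progenitors, had 4.42, 5.22 and 4.68 on mosaic arrays and 5.48, 5.60 and 5.28 on wild type arrays, a difference of -0.68. The mosaic arrays were the more variable group for Baalc, with replicate 2 close to wild type. The zinc finger gene Zfp820 had the lowest difference of the named genes, -0.94, with 3.27, 3.17 and 2.96 on mosaic arrays and 4.11, 3.94 and 4.18 on wild type arrays. Oog2 (-0.72), the pregnancy-specific glycoprotein gene Psg17 (-0.70), Unc93a (-0.67) and Eva1a (-0.46) completed this side with Pcdh19 and Pcdhb14. Another, dimmer Eva1a probe set differed by -0.09. Zfp820, Oog2, Psg17, Unc93a and Eva1a averaged under 4.85. For Zfp820 and Psg17 all 3 mosaic arrays lay under 3.57, the lowest 25th percentile of an array, so the size of these gaps is uncertain.

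**Figure D3:**
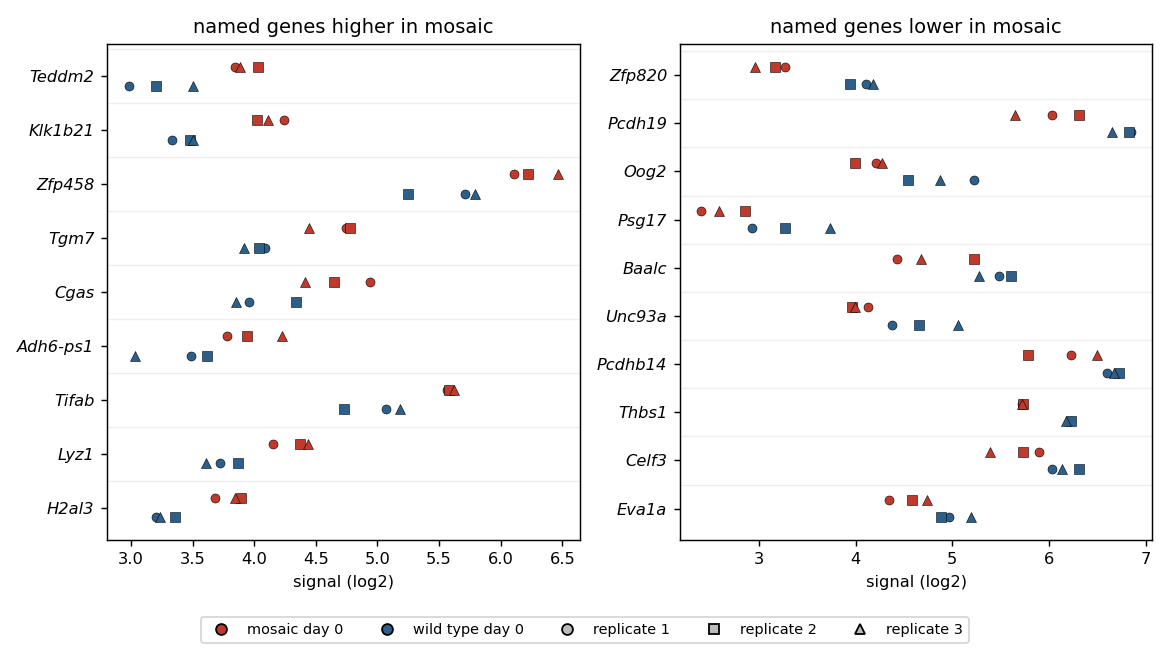
Log2 signal (horizontal axis) of named genes among the highest and the lowest in mosaic relative to wild type at day 0, 1 symbol per array, with replicates by shape. Thbs1 and Tifab have tightly grouped mosaic arrays, whereas Baalc, Pcdh19 and Pcdhb14 spread over more than 0.6 among the mosaic arrays.

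The other non-clustered protocadherins had smaller differences than Pcdh19. Of 11 tested members of the delta group and their relatives, 0 were higher and 1, Pcdh19, was lower at an unadjusted p under 0.05 (1.7% of all genes), and Pcdh19 alone had mosaic entirely below wild type (5.63% of all genes). Differences were negative for 10 of the 11, with a list median of -0.10, against 0.00 over all genes. Pcdh18 differed by -0.18, Pcdh17 by -0.12, Pcdh1 by -0.11 (0.0145 without mosaic replicate 1) and Pcdh12 by 0.12. The intervals of 10 members stayed within 1.5-fold.

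The clustered protocadherins, whose combinations give single neurons distinct surface identities, were represented mainly by the beta cluster. Of 58 listed genes, 22 could be tested, and 18 of these had negative differences, with a median of -0.16. As deviations from the mean of the 6 arrays, the list stood at -0.05, -0.12 and -0.04 on mosaic arrays. On wild type arrays it stood at 0.12, -0.03 and 0.13, with replicate 2 close to mosaic. The list median was -0.24 without wild type replicate 2 and -0.12 without wild type replicate 3. The groups did not overlap for 3 members, all with mosaic below (5.63% of all genes). Pcdhb14 had 6.23, 5.78 and 6.50 on mosaic arrays and 6.60, 6.73 and 6.67 on wild type arrays, a difference of -0.49 ± 0.16 (SE; unadjusted p = 0.00587, adjusted p = 0.999). Mosaic replicate 2 was lowest and replicate 3 came close to wild type. Pcdhb5 differed by -0.31, Pcdhb13 by -0.30, Pcdhb7 by -0.28 and Pcdhb16 by -0.28. These genes are similar in sequence, and how far their probe sets read one another was not tested. The median of the same list was 0.01 in knockout minus wild type at day 0 and 0.13 in mosaic minus wild type at day 4.

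Classical cadherins and catenins, the adhesion complex with which protocadherin 19 interacts, showed small differences. All 23 tested members had intervals within 1.5-fold, and 0 had an unadjusted p under 0.05. Ctnna2, the neuronal alpha-catenin, had 7.22, 7.16 and 7.35 on mosaic arrays and 7.42, 7.58 and 7.49 on wild type arrays, the 1 gene of the list whose groups did not overlap (5.63% of all genes had mosaic below; difference -0.26). Ctnnd1, encoding p120-catenin, differed by -0.16, while Cdh24 differed by 0.17, Cdh18 by 0.16 and Cdh13 by 0.16. In the WAVE complex list, genes of the actin-nucleating machinery recruited by several protocadherins, all 17 tested members had intervals within 1.5-fold. Wasf3, a WAVE subunit, had 7.12, 7.12 and 6.99 on mosaic arrays and 7.46, 7.25 and 7.30 on wild type arrays, a difference of -0.26 ± 0.08 (SE; unadjusted p = 0.0063, adjusted p = 0.999). Its groups did not overlap, nor did those of Cyfip2, another subunit, at -0.21. Abi3, a WAVE subunit better known in microglia, differed by 0.29, Rac3 by 0.15 and Arpc5 by -0.13, or -0.0036 with the mean of the Arpc5 probe sets.

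GABA-A receptor subunits, which form the chloride channels opened by the transmitter GABA, were dim on these arrays. Of 12 tested, 2 were higher (2.59% of all genes) and 0 lower at an unadjusted p under 0.05, and the median difference was 0.11. Gabrr2 had 4.92, 4.65 and 4.92 on mosaic arrays and 4.77, 4.35 and 4.18 on wild type arrays, a difference of 0.40 with overlapping groups. Gabra3 had 5.57, 5.15 and 5.40 on mosaic arrays and 4.78, 5.26 and 5.05 on wild type arrays, a difference of 0.34, also with overlap. Gabrd differed by 0.23, Gabre by 0.15 and Gabrb2 by -0.14. A total of 10 of the 12 lay below the median level of all genes, the range in which higher genes outnumbered lower ones across the array.

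Stem cell genes were nearly level between mosaic and wild type neurospheres. Of 27 tested, 1 was higher (2.59% of all genes) and 0 were lower at an unadjusted p under 0.05, the median difference was -0.02, and 23 intervals stayed within 1.5-fold. The mosaic arrays lay entirely above wild type for 1 member (5.66% of all genes) and entirely below for 4, Notch2 among them (5.63% of all genes). Hopx, a homeodomain gene of radial glia, had 5.85, 5.68 and 5.57 on mosaic arrays and 5.13, 5.53 and 5.36 on wild type arrays, and its groups did not overlap (difference 0.36). Hes5, the Notch effector that maintains progenitors, had 10.98, 10.48 and 10.14 on mosaic arrays and 10.93, 10.70 and 10.82 on wild type arrays. Mosaic replicate 1 matched wild type for Hes5 while replicate 3 lay well below it, and the difference was -0.29. Another, dimmer Hes5 probe set differed by 0.03. Notch2 differed by -0.21, Prom1 by 0.19 and Id3 by -0.16 (0.0025 without mosaic replicate 3). The wider Notch list gave 0 of 26 genes at an unadjusted p under 0.05, with a median of -0.09. Its ligands went both ways, Jag1 at -0.29 and Jag2 at 0.23, with the coactivator Maml3 at 0.39 and the effector Hey2 at -0.22.

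In the lists of the neuronal lineage 0 genes passed the adjusted threshold. Among 23 intermediate progenitor and neuroblast genes 0 had an unadjusted p under 0.05, 10 differences were positive and 13 negative, and the median of -0.01 was 0.04 without mosaic replicate 1. Dcx, the microtubule protein of migrating neuroblasts, had 7.23, 7.36 and 7.19 on mosaic arrays and 7.66, 7.82 and 7.40 on wild type arrays. All mosaic arrays lay below wild type for Dcx, with a difference of -0.37 (95% interval -0.80 to 0.06). The transcription factor genes named from the list were dim, with Neurod1 at 0.18, Eomes at 0.16, Sp9 at 0.13 and Tbr1 at -0.15. Each averaged under 4.85, the lowest array median, in both groups. Tbr1 lay under 3.57, the lowest 25th percentile of an array, on all 6 arrays, so small differences here say little. Of 28 neuronal genes, 22 had negative differences, with a median of -0.05, and 4 had mosaic entirely below wild type (5.63% of all genes). Celf4, a neuronal RNA-binding protein gene, had 5.02, 4.85 and 4.83 on mosaic arrays and 5.34, 5.42 and 5.23 on wild type arrays, a difference of -0.43 (95% interval -1.01 to 0.15). The kinesin gene Kif5c differed by -0.30, and the neurofilament genes Nefl and Nefm differed by -0.46 and -0.26 with overlapping groups. The glutamate transporter gene Slc17a7 differed by 0.30.

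Axon guidance and synaptic adhesion genes also had mostly small negative differences. Of 36 guidance genes 24 had negative differences (median -0.06), 4 had mosaic entirely below wild type (5.63% of all genes), and 1 was lower at an unadjusted p under 0.05 (1.7% of all genes). That gene was Nrp2, the neuropilin receptor for class 3 semaphorins and VEGF, with 6.89, 6.71 and 6.68 on mosaic arrays and 7.17, 7.17 and 7.15 on wild type arrays. The wild type arrays were nearly identical, and the difference was -0.40 ± 0.13 (SE; 95% interval -0.67 to -0.13; adjusted p = 0.999). Dcc, the netrin receptor, differed by -0.29 and Plxnb1, a semaphorin receptor, by -0.22, both with mosaic below wild type on every array, although the mean of the Plxnb1 probe sets differed by 0.0038. Sema4d differed by -0.29 and Cxcl12 by 0.22 with overlapping groups. Among 28 synaptic adhesion genes 0 had an unadjusted p under 0.05, and 27 intervals lay within 1.5-fold. The lowest were Lrrtm2 (-0.25), Tenm4 (-0.22, or -0.04 on another, dimmer probe set), Flrt3 (-0.22), Flrt1 (-0.20) and Tenm2 (-0.20).

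The astrocyte and oligodendrocyte differences turned on 1 mosaic array. Gfap, the intermediate filament of astrocytes, had 7.68, 8.41 and 8.57 on mosaic arrays and 8.47, 8.47 and 8.36 on wild type arrays. Mag, a myelin adhesion protein gene, had 3.95, 5.40 and 5.40 on mosaic arrays and 5.49, 5.39 and 5.0 on wild type arrays. Mosaic replicate 1 was the low array in both cases, and the other two lay at or near wild type. The differences over all arrays were -0.21 for Gfap and -0.38 for Mag, and without mosaic replicate 1 they were 0.06 and 0.11. The 22 astrocyte genes had a median of -0.06, which became 0.06 without that array, and the 20 oligodendrocyte genes had a median of -0.09, which became 0.04. Enpp6, an enzyme gene of newly forming oligodendrocytes, followed the same order with 6.69, 7.50 and 7.84 on mosaic arrays and 7.67, 7.71 and 7.53 on wild type arrays. Its difference of -0.29 was 0.038 without mosaic replicate 1.

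Id4 was the 1 astrocyte gene lower at an unadjusted p under 0.05 (1.7% of all genes), with a difference of -0.30 and overlapping groups. Slc1a2 differed by -0.19, Aqp4 by -0.14 (0.062 without mosaic replicate 1) and Gjb6 by 0.15. Bcas1 differed by -0.30 (-0.095 without mosaic replicate 1, and 0.13 on another, dimmer probe set), Mal by 0.23 and Ermn by 0.20. Of 19 oligodendrocyte progenitor genes, 0 had an unadjusted p under 0.05 and 14 had negative differences, with Gpr17 at -0.32 (-0.15 without mosaic replicate 1), Tnr at -0.29 (-0.085 without it), Pdgfra at -0.16, Sox6 at -0.14 and Cspg4 at 0.13.

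Averaging each list on each array showed where the mosaic arrays diverged from one another. As deviations from the mean of the 6 arrays, the astrocyte list stood at -0.24, 0.04 and 0.12 on the mosaic arrays, -0.06, -0.17 and 0.16 on the knockout arrays and 0.01, 0.04 and 0.03 on the wild type arrays. The oligodendrocyte list stood at -0.26, 0.07 and 0.07 on mosaic arrays, -0.21, -0.21 and 0.20 on knockout arrays, and 0.04 on each wild type array. The wild type arrays were tightly grouped on both lists, while the mosaic and knockout arrays were spread on either side of them. The Notch list ranged over 0.17 among mosaic arrays and 0.01 among wild type arrays, and the heat shock list over 0.29 and 0.11. The range was wider among wild type arrays for 14 of 34 lists, among them hypoxia and glycolysis, with a range of 0.37 among mosaic arrays and 0.54 among wild type arrays. Among the mosaic arrays, replicate 2 had the highest Pcdh19 and replicate 3 the highest astrocyte mean. Whether Pcdh19 and the list means are related was not tested.

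**Figure D4:**
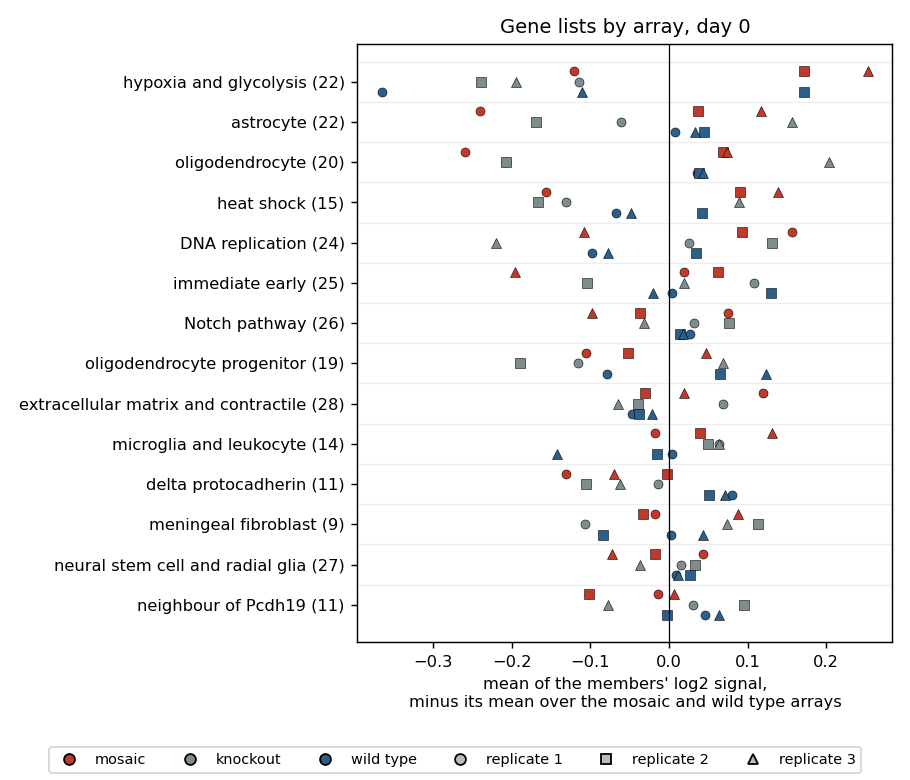
Mean log2 signal of gene lists on each day 0 array (horizontal axis), by genotype (colour) and replicate (shape). Values are deviations from the list's mean over the mosaic and wild type arrays. The lists shown were chosen for their wide range among the mosaic arrays. Mosaic replicate 1 sits at -0.24 for astrocyte genes and -0.26 for oligodendrocyte genes, away from the other mosaic arrays and from wild type, while wild type replicate 1 sits at -0.37 for hypoxia and glycolysis genes.

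Genes of mitosis and DNA replication had mostly small positive differences. Of 23 mitosis genes, 22 had positive differences, the median was 0.13, and 6 had all mosaic arrays above all wild type arrays (5.66% of all genes), yet 0 had an unadjusted p under 0.05. Cdc20, the activator of the anaphase-promoting complex, had 8.84, 8.89 and 8.90 on mosaic arrays and 8.56, 8.63 and 8.70 on wild type arrays, a difference of 0.25 without overlap. Ccnb2, a mitotic cyclin gene, differed by 0.36, the checkpoint kinase gene Bub1 by 0.23, Birc5 by 0.22 and Cdk1 by 0.20, all with overlap. The list mean stood at 0.04, 0.11 and 0.05 on mosaic arrays, 0.10, 0.05 and -0.00 on knockout arrays, and -0.16, -0.03 and -0.01 on wild type arrays. Wild type replicate 1 was the lowest, and without it the list median was 0.07. Of 24 DNA replication genes 21 had positive differences, with a median of 0.11, and 1 was higher at an unadjusted p under 0.05 (2.59% of all genes). That gene was Gins2, a subunit of the replicative helicase complex, with 6.23, 6.37 and 6.17 on mosaic arrays and 5.88, 6.09 and 6.04 on wild type arrays (difference 0.25). Chaf1b differed by 0.26, Mcm3 by 0.23, Uhrf1 by 0.19 and Ccne1 by 0.16. Without mosaic replicate 1 the median of the DNA replication list was 0.04.

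Hypoxia and glycolysis genes had the highest list median, 0.21, with 20 of 22 differences positive and 2 genes higher at an unadjusted p under 0.05 (2.59% of all genes). Adm, the hypoxia-induced peptide adrenomedullin, had 6.82, 7.07 and 7.01 on mosaic arrays and 6.37, 6.77 and 6.75 on wild type arrays, a difference of 0.34 without overlap. Pdk1, the kinase that holds pyruvate back from mitochondria, had 7.13, 7.49 and 7.62 on mosaic arrays and 6.72, 7.32 and 7.26 on wild type arrays, a difference of 0.31 with overlap. Wild type replicate 1 was the lowest of the 6 arrays for both genes. The list mean stood at -0.12, 0.17 and 0.25 on mosaic arrays, -0.11, -0.24 and -0.19 on knockout arrays, and -0.37, 0.17 and -0.11 on wild type arrays. The wild type arrays thus spanned most of the mosaic range, and the list median was 0.07 without wild type replicate 1, 0.12 without mosaic replicate 3 and 0.38 without wild type replicate 2. Ndrg1 differed by 0.32 (0.04 on another, dimmer probe set), P4ha1 by 0.32 and Vegfa by 0.30. The median of the list was -0.08 in knockout minus wild type.

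Cholesterol synthesis genes were positive for 17 of 19 members, with a median of 0.12 and 0 genes at an unadjusted p under 0.05. The list mean stood at 0.04, 0.12 and 0.03 on mosaic arrays and -0.13, 0.08 and -0.13 on wild type arrays. Wild type replicate 2 thus lay above mosaic replicates 1 and 3. The list median was 0.09 without wild type replicate 1 and 0.18 without wild type replicate 2. The sterol dehydrogenase gene Nsdhl had 9.27, 9.33 and 9.31 on mosaic arrays and 9.08, 9.20 and 8.95 on wild type arrays, a difference of 0.23 without overlap. Lss, lanosterol synthase, differed by 0.26, Stard4 by 0.21, Dhcr7 by 0.20 and Mvd by 0.20. At day 4 Lss had 8.91, 8.79 and 10.29 on mosaic arrays and 8.66, 8.61 and 8.64 on wild type arrays, and Stard4 had 6.83, 7.19 and 8.07 on mosaic arrays and 6.72, 6.92 and 7.03 on wild type arrays. Mosaic replicate 3 stood far above the other day 4 arrays of these genotypes for both genes. The whole list had a median of 0.42 at day 4. Of its 19 members, 12 were higher at an unadjusted p under 0.05 (7.88% of all genes). Whether these differences changed between the days was tested across all genes, and 0 were called.

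**Figure D5:**
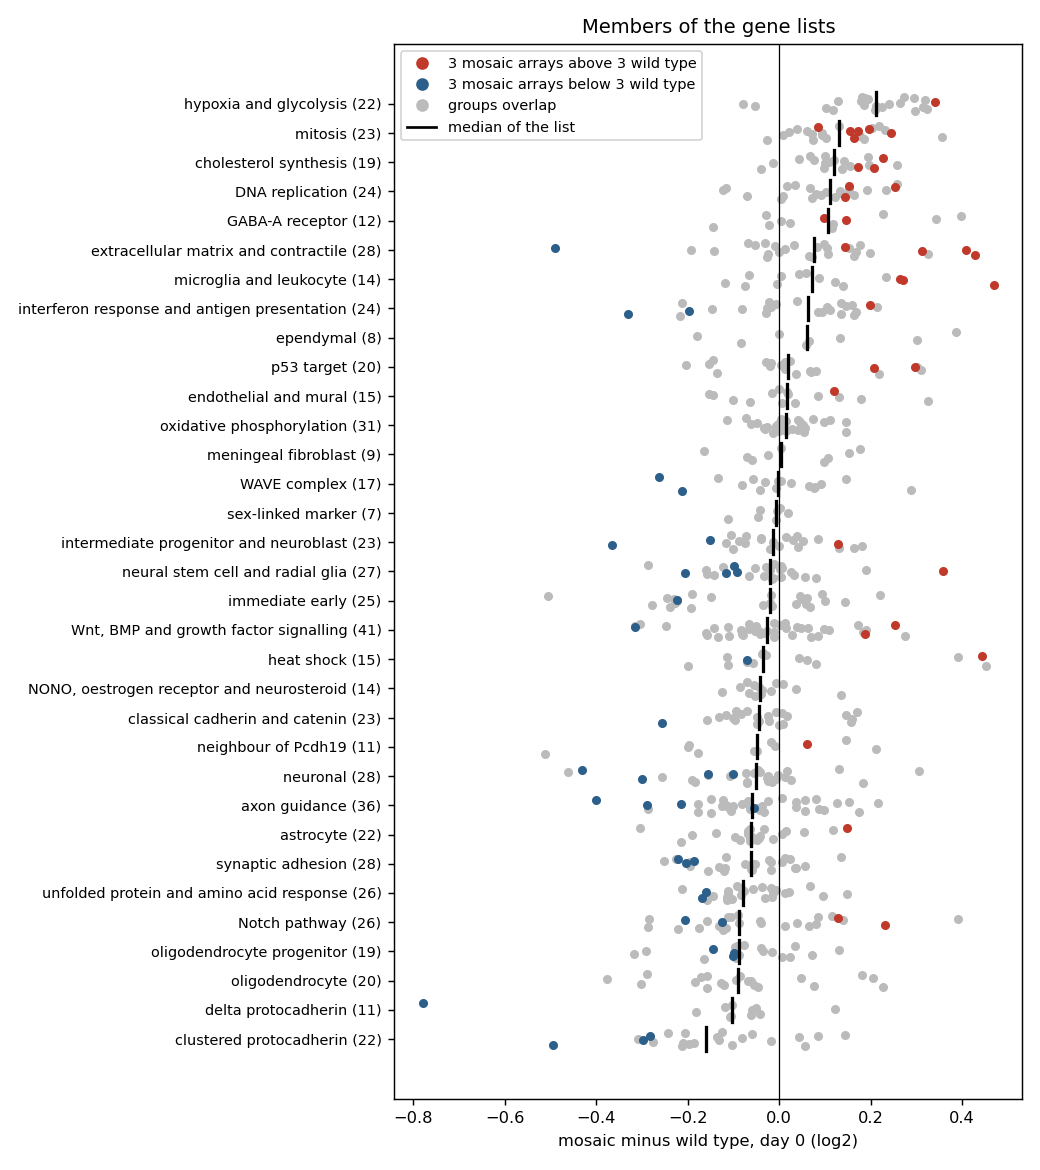
Log2 difference of mosaic minus wild type at day 0 (horizontal axis) for every tested member of each gene list, with the number tested in parentheses and the list median as a bar. Red points have all mosaic arrays above wild type and blue points all mosaic arrays below; the medians run between 0.21 for hypoxia and glycolysis and -0.16 for clustered protocadherins.

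Stress and immediate early genes showed wide spread and no passing gene. Hspa1a, a stress-inducible chaperone gene, had 8.69, 10.01 and 10.71 on mosaic arrays and 8.90, 9.62 and 9.54 on wild type arrays. Mosaic replicate 1 was below all wild type arrays and replicate 3 above them, so the difference of 0.45 had an interval of -0.46 to 1.36, and it was -0.0015 without mosaic replicate 3. Hspa1b, its near-identical copy, followed the same order with 8.19, 9.55 and 9.91 on mosaic arrays and 8.71, 8.90 and 8.87 on wild type arrays. Hspb1 differed by 0.44 without overlap (0.18 on another, slightly dimmer probe set), Hsf2 by -0.20 and Chordc1 by -0.11. Of 25 immediate early genes, 0 had an unadjusted p under 0.05. Nr4a3, an orphan nuclear receptor gene, had 7.97, 7.68 and 6.90 on mosaic arrays and 8.28, 7.89 and 7.92 on wild type arrays, with a difference of -0.51 that was -0.20 without mosaic replicate 3. Nr4a2 differed by -0.28, Egr1 by -0.24, Ier2 by -0.24 and Fosb by -0.23. Unfolded protein and amino acid response genes were negative for 21 of 26, with a median of -0.08 and 25 intervals within 1.5-fold. Among them Sdf2l1 differed by -0.21, Dnajc3 by -0.17, Dnajb9 by -0.16, the chaperone gene Hspa5 by -0.16 and Vldlr by 0.15.

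Matrix and contractile genes included members on both sides. Of 28 tested, 4 had all mosaic arrays above wild type (5.66% of all genes) and 1, Thbs1, all below (5.63% of all genes). Col4a1, a basement membrane collagen gene, had 6.04, 5.995 and 6.17 on mosaic arrays and 5.69, 5.51 and 5.79 on wild type arrays, a difference of 0.41 ± 0.13 (SE; unadjusted p = 0.00639, adjusted p = 0.999). Timp1, a metalloproteinase inhibitor gene, had 5.77, 5.85 and 5.83 on mosaic arrays and 5.22, 5.64 and 5.30 on wild type arrays, a difference of 0.43 without overlap. The contractile genes Acta2 and Cnn1 differed by 0.33 and 0.31. Among p53 targets 3 of 20 were higher (2.59% of all genes) and 0 lower at an unadjusted p under 0.05, with a list median of 0.02. These were Perp (0.31, or 0.14 without wild type replicate 3), Ddit4 (0.30, or 0.12 without wild type replicate 1) and Bbc3 (0.30, or 0.17 without mosaic replicate 2), of which Bbc3, the pro-apoptotic PUMA gene, had groups that did not overlap. Cdkn1a, the p21 cell cycle inhibitor gene, differed by 0.22 with overlap and Gtse1 by 0.21 without.

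Of 41 genes of Wnt, BMP and growth factor signalling, 0 were higher and 2 lower at an unadjusted p under 0.05 (1.7% of all genes). One was Id4. The other was Fgfr2, a fibroblast growth factor receptor gene, with 7.61, 7.89 and 8.09 on mosaic arrays and 8.27, 8.10 and 8.18 on wild type arrays, a difference of -0.32 without overlap. Bmp4 had 5.68, 6.49 and 6.88 on mosaic arrays and 6.41, 6.86 and 6.72 on wild type arrays, and its difference of -0.31 became 0.02 without mosaic replicate 1. Ccnd1, the G1 cyclin gene, differed by 0.28 and Fgf1 by 0.25. Of 14 microglia and leukocyte genes, all of them below the median level of all genes, 2 were higher at an unadjusted p under 0.05 (2.59% of all genes). C1qc differed by 0.47, Fcer1g by 0.27 and C1qb by 0.26, each without overlap, while Csf1r differed by 0.23 and Laptm5 by 0.14. The list held 10 positive and 4 negative differences, with a median of 0.07 and Aif1 the lowest at -0.12.

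Several further lists held no gene at an unadjusted p under 0.05 in either direction: 31 oxidative phosphorylation genes (30 intervals within 1.5-fold), 14 genes of the NONO, oestrogen receptor and neurosteroid list (14 within), 15 endothelial and mural genes, 9 meningeal fibroblast genes and 11 chromosomal neighbours of Pcdh19. In the interferon list 1 of 24 genes was lower (1.7% of all genes) and in the ependymal list 1 of 8 was higher (2.59% of all genes).

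The mosaic cultures were also set against the knockout cultures, the other source of their cells. By limma, 0 of 19016 genes were called in mosaic minus knockout (0%), with 806 (4.24%) at an unadjusted p under 0.05. In knockout minus wild type 0 were called (0%), with 686 (3.61%). A mosaic profile outside both genotypes, tested on the larger p of the mosaic minus knockout and mosaic minus wild type tests where both had the same sign, was called for 0 genes (0%). At an unadjusted p under 0.05 in both tests, 111 genes lay above both genotypes (0.584%) and 81 below both (0.426%). The comparisons against wild type share the wild type arrays, so their values are given side by side. Thbs1 differed from wild type by -0.49 in mosaic and -0.10 in knockout, Nrp2 by -0.40 and -0.08, and Pcdhb14 by -0.49 and -0.14. Klk1b21 differed by 0.69 in mosaic and 0.67 in knockout, Teddm2 by 0.69 and 0.62, and Pcdh19 by -0.78 and -1.27.

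At day 4 mosaic and wild type cultures again had 0 called genes in limma (0%), with 3026 (15.9%) at an unadjusted p under 0.05, of which 1498 were higher (7.88%) and 1528 lower (8.04%). The smallest adjusted p was 0.120. The test of whether the mosaic to wild type difference changed between day 0 and day 4 called 0 genes (0%), with 2354 (12.4%) at an unadjusted p under 0.05 and a smallest adjusted p of 0.195. Some genes with the widest gaps at day 0 had differences of the other sign at day 4. Teddm2 stood at 0.69 at day 0 and -0.63 at day 4, H2al3 at 0.54 and -0.71, Tgm7 at 0.64 and -0.42, and Zfp820 at -0.94 and 0.59. Pcdh19 kept its sign, with -0.78 at day 0 and -0.51 at day 4 (95% interval -1.07 to 0.05), and Baalc did so with -0.68 and -0.34.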

How the data were processed

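RNA from 18 neurosphere samples was measured on 1 array each. The authors deposited log2 values for 41345 probe sets; the log base was read from their range (0.722 to 13.97), and the normalization method is not given in the sources used here. Array medians lay between 4.85 and 4.99. Platform annotation gave 23521 probe sets 1 symbol, 1814 several and 16010 none; 23328 of the 23521 matched RefSeq by Entrez identifier. Genes above the array's 25th percentile on at least 3 arrays were tested (19016; 3164 left out). limma 3.58.1 in R 4.3.3 fitted the 6 group means over all 18 arrays, with two-sided tests and Benjamini-Hochberg adjustment. The number of arrays, 3 per group, limits the precision: the median SE of a difference was 0.126. The fit was tested on simulated data.

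Named genes were Pcdh19, the 10 highest and 10 lowest differences at an unadjusted p under 0.01 without overlap of the groups (predicted, olfactory, vomeronasal and small RNA genes left out), and, per list described, up to 5 members with the widest difference plus every member under 0.01; genes named outside this rule are Rps13, Snord91a, the cell type and sex markers, and genes called under an alternative. One gene that the rule names is not reported here. The comparison and the lists were chosen with earlier results of these data known. Replicate numbers were checked for pairing: the deviations of same-numbered mosaic and wild type arrays correlated at 0.08, 0.04 and 0.07, none over 0.1, so the fit has no block. Alternatives changed the arrays fitted, normalization, filter, probe set rule, variance model, weights, threshold and replicates.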

Additional observations from a re-analysis of the deposited data

How the results depend on the processing

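With the replicate block, mosaic minus wild type at day 0 again had 0 called genes (smallest adjusted p 0.801), 844 genes at an unadjusted p under 0.05 and a Pcdh19 difference of -0.78. Every array correlated best with its own number, but no correlation exceeded 0.1. Whether arrays of the same number were handled together was not tested. Leaving out 1 array at a time gave 0 to 1 calls. The 1 call came without wild type replicate 2 (Serpina1e, 1.05, adjusted p 0.0280; 0.74 with all arrays). Mosaic minus knockout likewise gave 0 to 1, the call coming without knockout replicate 1 (Flrt1, 0.85, adjusted p 0.0446). The change of the difference between the days had 1 call when only the compared groups were fitted (H2al3, -1.25, adjusted p 0.0429) and 1 with a variance trend and robust estimation (Zfp972, 1.77, adjusted p 0.0479). Leaving out 1 array gave 0 to 1, the call coming without day 4 wild type replicate 3 (Zfp972, adjusted p 0.0332). No cause was tested. Genes higher at an unadjusted p under 0.05 numbered 286, against 493, with the filter at the 50th percentile, which removes dim genes. The total of 817 ranged over 565 to 1176.

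Of 139 named genes, 2329 of 2338 alternative values kept direction and call, and 9 changed sign. Without mosaic replicate 1 these were Aqp4 (0.062), Bmp4 (0.020), Enpp6 (0.038), Gfap (0.057), Mag (0.11) and Pcdh1 (0.0145); without replicate 3 they stood at -0.29, -0.58, -0.54, -0.39, -0.62 and -0.24. Without mosaic replicate 3 the genes were Hspa1a (-0.0015) and Id3 (0.0025), against 1.01 and -0.31 without replicate 1, and with the mean of its probe sets Plxnb1 (0.0038). Pcdh19 ranged over -0.94 to -0.60. All probe sets, named or not, an alternative chosen after seeing the data, also gave 0 calls. Dim genes have the largest errors, and 541 of 1052 genes with several probe sets had probe sets of opposite sign.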

Other observations

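The genes below were picked, after their values were seen, from those with the widest spread among the mosaic arrays at day 0. For some of these the wild type arrays spread about as widely: Rabggtb ranged over 1.499 among mosaic arrays and 1.98 among wild type arrays, Erdr1 over 1.48 and 1.44, and Lynx1 over 1.33 and 1.29. Ptprn, a secretory granule protein gene, had 6.71, 7.31 and 8.24 on mosaic arrays and 6.98, 7.35 and 7.07 on wild type arrays. Nid1, the basement membrane protein nidogen 1, had 6.56, 7.37 and 8.13 on mosaic arrays and 7.11, 7.78 and 7.47 on wild type arrays, and Fn1, fibronectin, had 6.88, 7.60 and 8.03 on mosaic arrays and 7.22, 7.72 and 7.36 on wild type arrays. In each, mosaic replicate 1 lay below all wild type arrays and replicate 3 above them. Rab3b, a vesicle GTPase gene, had another order, with 6.34, 7.08 and 5.54 on mosaic arrays and 6.54, 6.61 and 5.97 on wild type arrays. Myadm was highest on mosaic replicate 1, with 6.84, 6.03 and 5.75 on mosaic arrays and 6.03, 5.87 and 6.07 on wild type arrays. These values carry no test, since the genes were picked for their spread.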
